A study of Mus musculus with 12 samples.

Results

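Glutathione S-transferase genes of the alpha, mu, pi and theta classes were followed in whole mouse liver before and after acetaminophen (APAP). The 10 genes were Gsta1, Gsta2, Gsta3, Gsta4, Gstm1, Gstm2, Gstm3, Gstm4, Gstp1 and Gstt1, found by symbol among the 55401 genes of the count table. All 10 passed the filter on low counts and belonged to the 17585 genes tested. RNA sequencing covered 12 libraries, 3 in each of 4 groups of male mice aged 7 to 10 weeks. FBXL5ΔDC mice carried CD11c-Cre with Fbxl5F/F alleles, and were sampled 6 h after an intraperitoneal APAP injection (FBXL5ΔDC 6 h) or untreated (FBXL5ΔDC 0 h). Control mice carried the Fbxl5F/F alleles without Cre and were sampled at the same times (control 6 h and control 0 h), so all 12 mice had the loxP-flanked Fbxl5 alleles. CD11c (Itgax) drives Cre mainly in dendritic cells, which are a small part of the liver, and the measured RNA came from the whole organ. Injected mice were fasted for 16 h beforehand. Both 300 and 500 mg/kg are named as doses, and the one these mice received is not given, nor is the feeding state of untreated mice. The labels number the replicates without saying how cages or litters were spread, so the p-values measure only the spread between these samples.

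Glutathione S-transferases join glutathione to electrophilic compounds, which makes them soluble and ready for export. In the liver, cytochrome P450 enzymes turn part of an APAP dose into the reactive quinone imine NAPQI, which is bound by glutathione, and transferases of the pi and mu classes can catalyse that step. Several of these genes are known targets of the transcription factor NRF2, which binds antioxidant response elements when electrophiles inactivate its inhibitor KEAP1. Alpha-class enzymes also reduce lipid hydroperoxides, GSTA4 acts on the lipid peroxidation product 4-hydroxynonenal, and theta-class GSTT1 acts on small halogenated compounds.

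Total counts ran from 67173096 to 72512319 per library, and abundances below are CPM, counts scaled to the library size, here with TMM scaling. Fbxl5 itself averaged 18.6 ± 5.25 and 17.2 ± 5.99 CPM in FBXL5ΔDC livers at 6 h and 0 h, and 15.8 ± 3.01 and 20.1 ± 2.27 CPM in control livers at 6 h and 0 h (SD, n = 3 each), and its groups overlapped. The calls depended on control 6 h replicate 3. That library had the lowest value of its group for 5 of the 10 genes (Gsta3 and all 4 mu genes) and the highest for 4 (Gsta1, Gsta2, Gsta4 and Gstt1). Such extremes were not particular to it. Control 0 h replicate 1 and FBXL5ΔDC 0 h replicate 3 were each highest for 8 and lowest for 1. Without control 6 h replicate 3, edgeR called 23% of 18464 genes between genotypes at 6 h, against 5.86% of 17585 with it. Values without it therefore stand beside the transferase results that were called or close to the threshold, and beside the counts of the gene lists. A change was called at a Benjamini-Hochberg adjusted p below 0.05 over all genes of a contrast, in edgeR's quasi-likelihood test. The 4 two-group contrasts share libraries with each other, so their values stand side by side and are not independent.

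Near copies limit what can be told apart within the family, and 75 coding bases are printed to show how close they are. How reads that match several genes were counted is not given in the sources used here. Of the 855 distinct 100-base windows in Gsta1 transcripts (GENCODE vM21), 80.6% also occurred in transcripts of another gene, and 64.7% occurred in Gm3776, an annotated protein-coding gene beside it. Gsta1 lies on GRCm38 chr9:78230656-78242684 (plus strand), Gm3776 on chr9:78257129-78269166 (plus strand), Gm10639 on chr9:78289923-78305525 (plus strand) and Gsta2 on chr9:78331018-78355788 (minus strand). The coding sequences of Gm3776 and Gsta1 differed at 2 of 669 aligned bases, and those of Gsta2 and Gsta1 at 13 of 666. Below are coding bases 1 to 75 from the start codon, with the base in capitals where Gm3776 differs from Gsta1. Gsta1 and Gsta2 are identical in this stretch.
Gsta1: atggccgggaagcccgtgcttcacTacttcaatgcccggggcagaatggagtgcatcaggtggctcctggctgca
Gm3776: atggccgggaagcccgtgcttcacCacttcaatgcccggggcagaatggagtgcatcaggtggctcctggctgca
Gsta2: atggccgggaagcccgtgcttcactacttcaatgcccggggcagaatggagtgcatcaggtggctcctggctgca

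The regions around the RefSeq start sites of these alpha genes are also near copies, as a stretch across each start shows. For Gsta2 this start lies inside the gene span given above, which begins further upstream. Sequences are RefSeq's on GRCm38.p6, read 5′ to 3′ along each gene, and capitals mark bases that differ from Gsta1. The stretches are chr9:78230539-78230698 (plus) for Gsta1, chr9:78257012-78257171 (plus) for Gm3776, chr9:78289813-78289970 (plus) for Gm10639 and chr9:78347121-78347278 (minus) for Gsta2.
Gsta1: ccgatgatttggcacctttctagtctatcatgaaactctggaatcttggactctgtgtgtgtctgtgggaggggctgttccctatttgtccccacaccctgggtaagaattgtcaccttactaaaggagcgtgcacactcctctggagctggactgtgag
Gm3776: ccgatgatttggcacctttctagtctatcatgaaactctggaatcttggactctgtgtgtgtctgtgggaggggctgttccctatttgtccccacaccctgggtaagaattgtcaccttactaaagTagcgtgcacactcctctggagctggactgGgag
Gm10639: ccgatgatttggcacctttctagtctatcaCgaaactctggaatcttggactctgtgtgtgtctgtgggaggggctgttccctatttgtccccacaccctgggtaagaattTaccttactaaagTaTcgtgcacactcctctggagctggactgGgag
Gsta2: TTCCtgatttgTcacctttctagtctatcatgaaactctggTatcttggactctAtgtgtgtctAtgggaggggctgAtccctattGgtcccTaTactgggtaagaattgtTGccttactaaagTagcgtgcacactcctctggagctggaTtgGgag
Gm3776 differed from Gsta1 at 2 of 160 aligned bases and Gm10639 at 5 of 158. Gsta2 differed at 17 of 158, and its stretch and that of Gm10639 each lacked 2 bases that Gsta1 has.

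Counts of Gm3776 moved with those of Gsta1, and Gm10639 and Gsta2 followed Gsta1 less closely. Gm3776 had 127 to 155 CPM in FBXL5ΔDC livers at 6 h and 0.629 to 1.79 CPM in FBXL5ΔDC livers at 0 h. It had 48.5 to 176 CPM in control livers at 6 h and 1.05 to 3.61 CPM at 0 h. In the 6 treated libraries its count was 0.878 to 0.963 of the Gsta1 count, a narrow band, whereas in the 6 untreated libraries, where Gsta1 counts were only 29 to 354, the ratio ran from 0.264 to 1.52. Gm10639 was far lower, with 1.95, 2.02 and 4.31 CPM in FBXL5ΔDC livers at 6 h, and it was listed at 0 in all 3 FBXL5ΔDC livers at 0 h. In control livers it had 3.32, 2.94 and 3.66 CPM at 6 h, against 0, 1.23 and 0 CPM at 0 h. Gsta2 counts were 0.220 to 0.932 of Gsta1 counts in the treated libraries and 4.68 to 43.9 times them in the untreated ones. For the pi genes, 25.1% of Gstp1 windows also occurred in Gstp2, and 10.8% in the processed pseudogene Gstp-ps on chromosome 1. Gstp2 counts were 0.155 to 0.174 of Gstp1 counts over the 12 libraries, and Gstp-ps counts were 0.0784 to 0.101 of them. Shared windows made up 28.4% of Gsta2, 13.8% of Gstm3, 5.86% of Gstm1 and 0.357% of Gstm2. Gsta3, Gsta4, Gstm4 and Gstt1 shared none. How reads were divided between the copies was not tested.

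**Figure D1:**
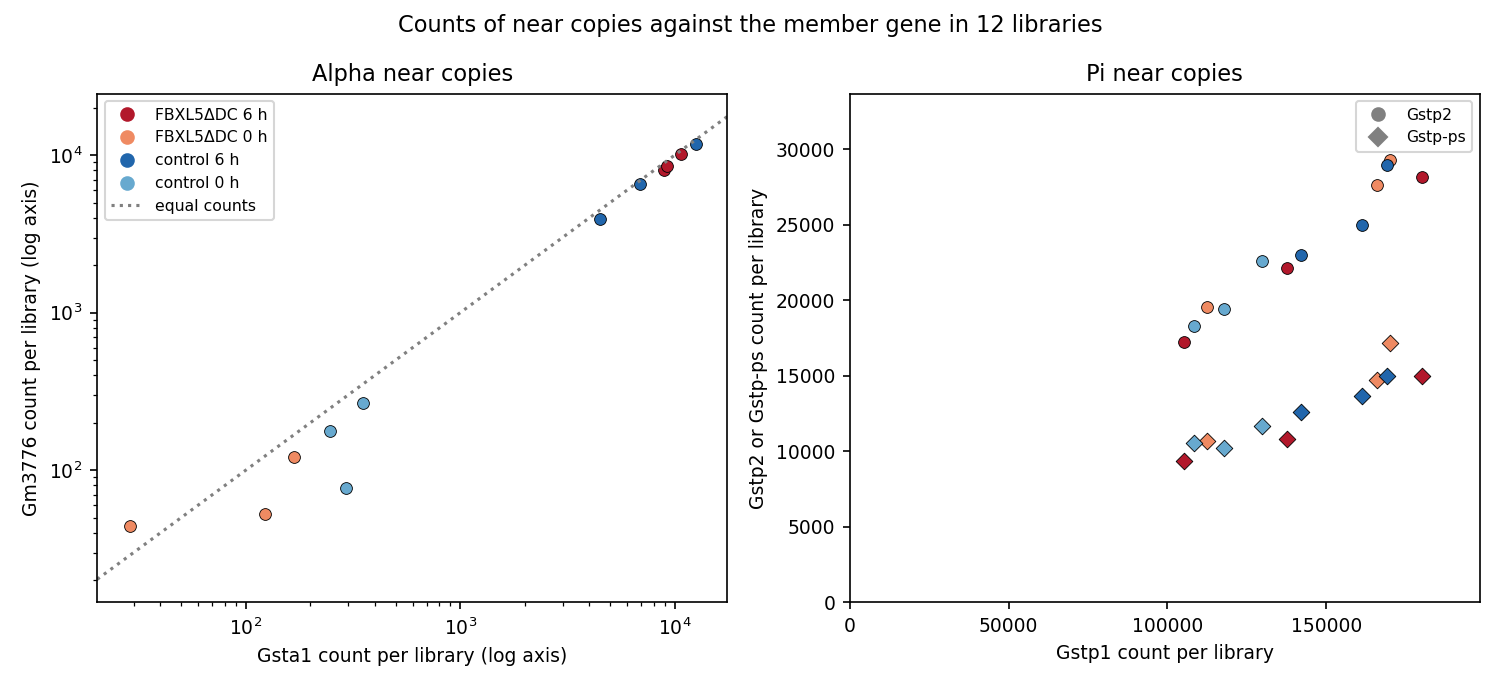
Left, Gm3776 count against Gsta1 count in each of the 12 libraries, both on log axes, with a dotted line at equal counts. Right, Gstp2 (circles) and Gstp-ps (diamonds) against Gstp1 on linear axes. The 6 treated libraries lie just under the line of equal counts at left, and both pi copies stay at a near-constant share of Gstp1 at right.

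Per kilobase of annotated exon, Gstp1 was the most abundant of the 10 genes in every group and Gstm1 came next, with no overlap between them. Gstp1, the pi-class enzyme, averaged 1409.8 ± 344 and 1412 ± 302 CPM per kb in FBXL5ΔDC livers at 6 h and 0 h. In control livers it averaged 1359 ± 64.4 CPM per kb at 6 h and 1030.2 ± 87.0 CPM per kb at 0 h. Gstm1, the main mu-class gene here, averaged 549 ± 96.4 and 581 ± 199.8 CPM per kb in FBXL5ΔDC livers at 6 h and 0 h, and 747 ± 161 and 641 ± 183 CPM per kb in control livers at 6 h and 0 h (SD, n = 3 each). Together they made up most of the level per length summed over these 10 genes. Of the family genes outside the 10, Mgst1 had group means of 724 to 947 CPM per kb. Below them the order changed with treatment, and it depends on the exon lengths used. These were 4344 bases for Gsta3 and 956 for Gsta1. By CPM alone Gsta3 had the higher mean of the 2 in every group, with 294 against 149 CPM in FBXL5ΔDC livers at 6 h. Gsta3 ranked 3 of 10 in FBXL5ΔDC livers at 0 h (147 ± 19.1 CPM per kb), in control livers at 6 h (127 ± 15.7) and in control livers at 0 h (144 ± 16.3), but 4 of 10 in FBXL5ΔDC livers at 6 h (67.8 ± 21.3). Gsta1 was last of the 10 in untreated livers of both genotypes, at 1.64 ± 1.10 CPM per kb in FBXL5ΔDC and 4.19 ± 0.773 CPM per kb in control livers. It ranked 3 at 6 h in FBXL5ΔDC livers (156 ± 14.2 CPM per kb) and 4 in control livers (116 ± 72.7 CPM per kb), where its libraries overlapped those of Gsta3 and Gsta4. As a share of the level summed over the 10 genes, Gsta1 held 6.66 ± 0.553% in FBXL5ΔDC livers at 6 h, against 0.0784 ± 0.0655% at 0 h. In control livers it held 4.52 ± 2.94% at 6 h and 0.214 ± 0.0633% at 0 h. The middle of the order was not resolved, since Gsta4, Gstm4 and Gsta2 each overlapped a neighbour in all 4 groups except Gstm4 in FBXL5ΔDC livers at 6 h.

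**Figure D2:**
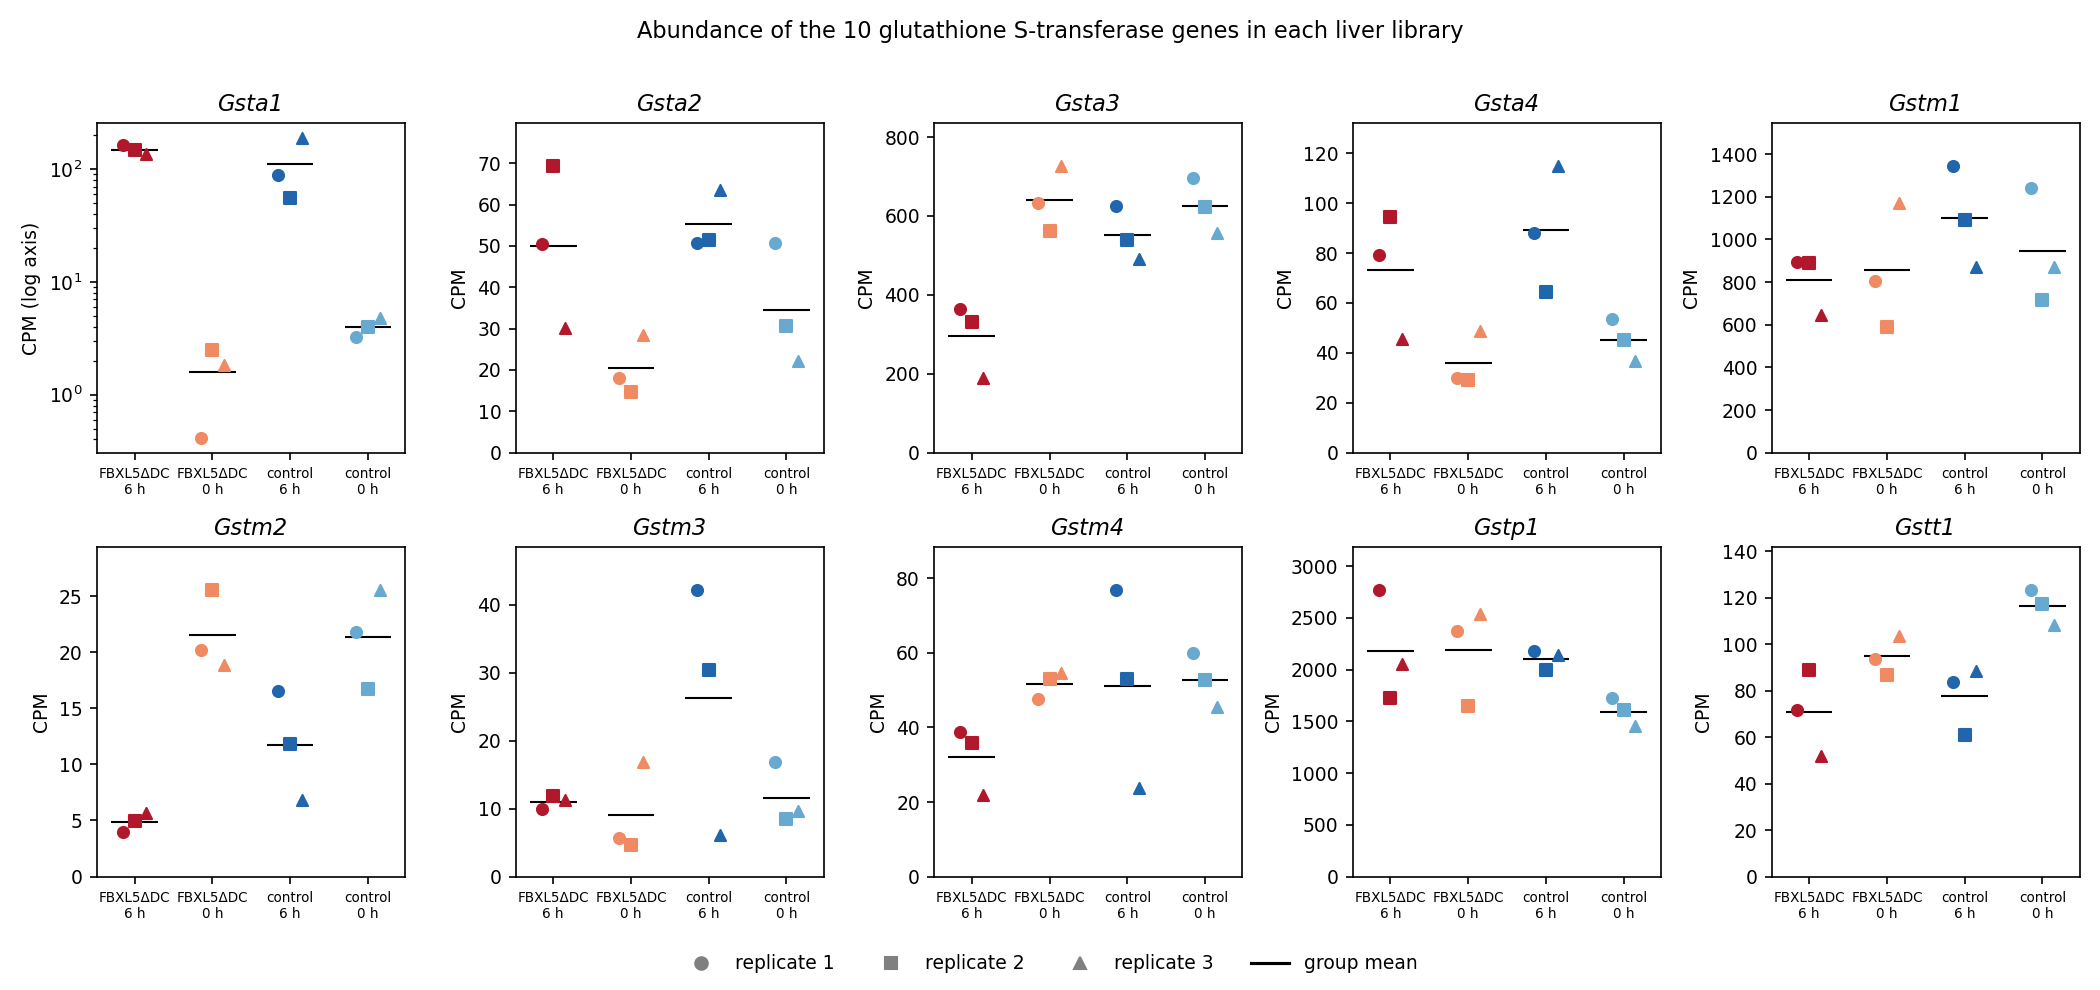
CPM of each of the 10 genes in the 12 libraries, with groups from left to right FBXL5ΔDC 6 h, FBXL5ΔDC 0 h, control 6 h and control 0 h. Marker shape gives the replicate number and the black line the group mean, and the Gsta1 axis is logarithmic. Gsta1 sits above 55 CPM in all 6 treated libraries and below 5 CPM in all 6 untreated ones, and control 6 h replicate 3 (triangle) is the lowest of its group for the 4 mu genes.

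Gsta1 rose after APAP in livers of both genotypes. It had 163, 147 and 136 CPM in FBXL5ΔDC livers at 6 h, against 0.414, 2.47 and 1.83 CPM at 0 h. Control livers had 88.4, 55.2 and 189 CPM at 6 h, against 3.28, 3.99 and 4.75 CPM at 0 h. Every treated library was above every untreated one, and the 3 treated FBXL5ΔDC libraries were close together while the 3 treated control libraries were spread. In whole liver, a change in the cells of a type and a change in the RNA per cell cannot be told apart, so fewer cells and less RNA per cell look the same. The log2 fold change was 6.57 in FBXL5ΔDC livers (SE 0.67, adjusted p = 1.58e-04), a 94.7-fold rise, and 4.79 in control livers (SE 0.61, adjusted p = 0.00144), a 27.6-fold rise. Both rises stayed called in all 22 alternative analyses. Without control 6 h replicate 3 the control value was 4.16 (adjusted p = 0.00226). Summed with Gsta2, the pair rose by log2 values of 3.18 in FBXL5ΔDC and 2.11 in control livers. Between genotypes, Gsta1 was not called at 6 h (log2 0.43, 95% interval -0.72 to 1.58, adjusted p = 0.685, and 1.05 with adjusted p = 0.190 without control 6 h replicate 3) or at 0 h, where the FBXL5ΔDC libraries all lay below the control libraries (log2 -1.35, unadjusted p = 0.0363, adjusted p = 1). The difference between the responses was 1.78 (SE 0.76, unadjusted p = 0.0414, adjusted p = 0.322), and 2.40 without control 6 h replicate 3 (adjusted p = 0.0629).

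Gsta2 and Gsta4 rose in FBXL5ΔDC livers by far less. Gsta2, whose product resembles that of Gsta1, had 50.5, 69.3 and 30.1 CPM in FBXL5ΔDC livers at 6 h, against 18.2, 14.6 and 28.3 CPM at 0 h. All 3 treated FBXL5ΔDC libraries were above all 3 untreated ones, although the lowest treated and highest untreated values nearly met. Its log2 change was 1.29 (SE 0.36, adjusted p = 0.0176). Of the Gsta2 windows 18.2% also occurred in Gsta1, so Gsta2 counts can include reads from Gsta1. The part of such reads in the Gsta2 rise was not tested. Between the genotypes the Gsta2 responses differed by 0.61 on the log2 scale (95% interval -0.47 to 1.70, adjusted p = 0.620). In control livers Gsta2 had 50.6, 51.5 and 63.6 CPM at 6 h, against 50.6, 30.6 and 22.2 CPM at 0 h, and was not called (log2 0.68, 95% interval -0.09 to 1.45, adjusted p = 0.265). Gsta4, the 4-hydroxynonenal-conjugating alpha enzyme on chr9:78182774-78209349 (plus strand), had 79.1, 94.6 and 45.5 CPM in FBXL5ΔDC livers at 6 h, against 29.8, 29.1 and 48.9 CPM at 0 h. Replicate 3 of the treated group fell below replicate 3 of the untreated group, so the groups overlapped, with a log2 change of 1.02 (SE 0.30, adjusted p = 0.0217). In control livers Gsta4 had 88.2, 64.4 and 115 CPM at 6 h, against 53.4, 45.0 and 36.9 CPM at 0 h, which did not overlap. That change had nearly the same size (log2 0.98, SE 0.30) and missed the threshold (adjusted p = 0.0553), and without control 6 h replicate 3 it was 0.76 (adjusted p = 0.211). The responses of Gsta4 in the genotypes differed by 0.04 on the log2 scale (95% interval -0.87 to 0.95, adjusted p = 0.983). The call of Gsta2 in FBXL5ΔDC livers was lost on leaving out FBXL5ΔDC 0 h replicate 1, FBXL5ΔDC 0 h replicate 2 or FBXL5ΔDC 6 h replicate 2 (adjusted p from 0.0660 to 0.0738), and that of Gsta4 on leaving out any of these 3 or FBXL5ΔDC 6 h replicate 1 (0.0651 to 0.0931).

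Gsta3 fell in FBXL5ΔDC livers, the opposite direction to the other 3 alpha genes. Gsta3, a major alpha transferase of mouse liver, lies apart from the others on chr1:21240589-21265661 (plus strand), overlapped on the other strand by Gm28836 with no shared exon bases. It had 363, 331 and 189 CPM in FBXL5ΔDC livers at 6 h, against 633, 561 and 726 CPM at 0 h. Among control livers the values were 626, 539 and 491 CPM at 6 h, against 697, 624 and 556 CPM at 0 h. The 3 treated FBXL5ΔDC libraries were the lowest 3 of the 12, and the other 3 groups overlapped each other. Mitochondrial genes took 8.94% to 9.43% of the counts in the treated FBXL5ΔDC libraries, against 5.32% to 7.05% in the other 9 libraries. The 10 most abundant genes of a library took 19.6% to 21.3% there, against at most 18.7% in the other 9, and the part of these shares in the results was not tested. Gsta3 fell after APAP in FBXL5ΔDC livers, to 0.460 of the untreated level (log2 -1.12, SE 0.21, adjusted p = 0.00202), a call kept in all 22 alternative analyses. In control livers the change was -0.18 (95% interval -0.63 to 0.27, adjusted p = 0.674). At 6 h Gsta3 was lower in FBXL5ΔDC than in control livers (log2 -0.91, SE 0.21, adjusted p = 0.0276), also without control 6 h replicate 3 (-0.99, adjusted p = 0.00558), and at 0 h it was not called (log2 0.03, 95% interval -0.42 to 0.48, adjusted p = 1). The difference between the responses was -0.94 (unadjusted p = 0.00741, adjusted p = 0.173), and it was called without control 6 h replicate 3 (-1.02, adjusted p = 0.0381). The genotype call at 6 h was lost without control 6 h replicate 1 or 2 or without FBXL5ΔDC 6 h replicate 2 (adjusted p 0.0683 to 0.111), and in a fit to the 6 h libraries alone (0.179).

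Gsta3 was also the only one of the 9 genes with a promoter window in the RefSeq table whose window held the antioxidant response element core TGACNNNGC. The windows run from 250 bases before to 50 after the start, both strands were searched, and no other motif was searched. The core occurred in 12.4% of 32851 windows of that length. These genes had 11 windows, 1 of them with the core, which is near the share over all windows. The Gsta3 stretch, chr1:21240429-21240507 (plus), is printed with the core in capitals.
Gsta3: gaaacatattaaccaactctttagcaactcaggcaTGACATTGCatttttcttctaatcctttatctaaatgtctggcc
A match is a description of these letters, and binding there was not measured.

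Of the mu genes, Gstm2 fell most. The 4 mu genes lie together on chromosome 3 on the minus strand, and Gstm2 at chr3:107981702-107986453. It had 3.98, 4.95 and 5.65 CPM in FBXL5ΔDC livers at 6 h, against 20.2, 25.5 and 18.9 CPM at 0 h. Its control values were 16.5, 11.9 and 6.85 CPM at 6 h, against 21.8, 16.7 and 25.5 CPM at 0 h. The groups stood in order without overlap, with treated FBXL5ΔDC livers lowest, treated control livers next and the 2 untreated groups highest and mixed. In FBXL5ΔDC livers Gstm2 fell to 0.226 of its untreated level (log2 -2.15, SE 0.29, adjusted p = 3.16e-04), and the call was kept in all 22 alternative analyses. In control livers the change of -0.86 (SE 0.28) missed the threshold (adjusted p = 0.0658), was called in 2 of the 22 alternative analyses, and was -0.59 without control 6 h replicate 3 (adjusted p = 0.121). At 6 h it was lower in FBXL5ΔDC than in control livers (log2 -1.27, SE 0.28, adjusted p = 0.0238), also without control 6 h replicate 3 (-1.55, adjusted p = 1.91e-04), and at 0 h it was not called (log2 0.01, 95% interval -0.58 to 0.61, adjusted p = 1). The responses differed by -1.28 (unadjusted p = 0.00622, adjusted p = 0.164), and by -1.56 without control 6 h replicate 3 (adjusted p = 0.00304). The genotype call at 6 h was lost without control 6 h replicate 1 or 2 or FBXL5ΔDC 6 h replicate 1 or 2 (adjusted p 0.0697 to 0.103), and in a fit to the 6 h libraries alone (0.169).

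Gstm1, Gstm3 and Gstm4 passed the test in no contrast. Gstm4 had 38.7, 35.8 and 21.8 CPM in FBXL5ΔDC livers at 6 h, against 47.6, 52.9 and 54.7 CPM at 0 h. For control livers the values were 76.9, 52.9 and 23.8 CPM at 6 h, against 60.0, 52.8 and 45.5 CPM at 0 h. The treated FBXL5ΔDC libraries were all below the untreated ones (log2 -0.69, adjusted p = 0.152, called at 0.0184 without control 6 h replicate 3), and the treated control libraries lay on both sides of theirs. Gstm3, a neighbour of Gstm2 in the cluster, had 9.95, 11.8 and 11.2 CPM in FBXL5ΔDC livers at 6 h, and 5.74, 4.64 and 16.9 CPM at 0 h. Control livers held 42.2, 30.3 and 6.14 CPM at 6 h, against 16.8, 8.41 and 9.67 CPM at 0 h. In control livers at 6 h its replicate 3 lay far below the other 2 libraries. At 6 h the genotypes differed by -1.25 for Gstm3 (95% interval -2.69 to 0.18, adjusted p = 0.284) and by -0.67 for Gstm4 (95% interval -1.42 to 0.07, adjusted p = 0.265). Without control 6 h replicate 3 both were called lower in FBXL5ΔDC livers, at -1.72 (adjusted p = 0.0417) and -1.02 (adjusted p = 0.00534). Gstm1, the abundant mu gene, had 645 to 892 CPM in FBXL5ΔDC livers at 6 h and 591 to 1172 CPM at 0 h, and 869 to 1343 CPM in control livers at 6 h and 718 to 1242 CPM at 0 h. These ranges overlapped, and its log2 change after APAP was -0.08 in FBXL5ΔDC livers (95% interval -0.66 to 0.49, adjusted p = 0.857) and 0.22 in control livers (95% interval -0.35 to 0.80, adjusted p = 0.686).

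Gstp1 and Gstt1 were not called either. Gstp1, on chr19:4035407-4037985 (minus strand), had 2769, 1728 and 2051 CPM in FBXL5ΔDC livers at 6 h, and 2369.8, 1653 and 2533 CPM at 0 h. In control livers it had 2183, 1992 and 2137 CPM at 6 h, against 1723, 1607 and 1454 CPM at 0 h. The control groups did not overlap (log2 0.40, SE 0.19, adjusted p = 0.208), while the FBXL5ΔDC groups did (log2 -0.0019, 95% interval -0.41 to 0.40, adjusted p = 0.992). Gstt1, on chr10:75783813-75798584 (minus strand), had 71.5, 88.9 and 51.7 CPM in FBXL5ΔDC livers at 6 h, against 93.6, 86.9 and 104 CPM at 0 h. Control livers had 83.8, 60.7 and 88.5 CPM at 6 h, against 123, 117 and 108 CPM at 0 h. Untreated control livers had the highest 3 values of the 12 and overlapped no other group. The change after APAP was -0.42 in FBXL5ΔDC livers (adjusted p = 0.109) and -0.58 in control livers (SE 0.19, adjusted p = 0.0661). Without control 6 h replicate 3 the control change was called at -0.69 (adjusted p = 0.0447).

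Counted over the 10 genes, 3 rose and 2 fell after APAP in FBXL5ΔDC livers, where 30.1% of all tested genes were called, 15% higher and 15.1% lower. In control livers 1 rose and none fell, where 10.6% of all tested genes were called, 6.36% higher and 4.2% lower. Between genotypes at 6 h, 2 were lower and none higher in FBXL5ΔDC livers, where 5.86% of all tested genes were called, 1.35% higher and 4.51% lower. At 0 h none was called, and 0% of all genes were. At an unadjusted p below 0.05, 2 of the 10 genes (Gsta1 and Gstp1) and 2.64% of all genes passed at 0 h, and DESeq2 called none of the 10. For the difference between the responses none of the 10 was called by edgeR or DESeq2, 3 had an unadjusted p below 0.05, and the backgrounds were 0.29% adjusted and 14.5% unadjusted. The median log2 change of the 10 was -0.04 in FBXL5ΔDC livers and 0.31 in control livers after APAP, against 0.02 and 0.03 over all genes. Without control 6 h replicate 3, 4 of the 10 were lower in FBXL5ΔDC livers at 6 h (Gsta3, Gstm2, Gstm3 and Gstm4). There 23% of 18464 genes were called, 1873 higher and 2376 lower. The responses then differed for 3 (Gsta3, Gstm2 and Gstm4), all below 0, where 13.7% of genes were called, 1103 above 0 and 1430 below. That fit left 2 libraries in the group, and the spread was estimated over all groups together, as in the main fit. By DESeq2, 4 of the 10 were called after APAP in control livers, namely Gsta1 and Gsta4 higher and Gstm2 and Gstt1 lower. DESeq2 also called more of all genes there, 17.5% of the 16521 with an adjusted p, 10.2% higher and 7.24% lower.

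**Figure D3:**
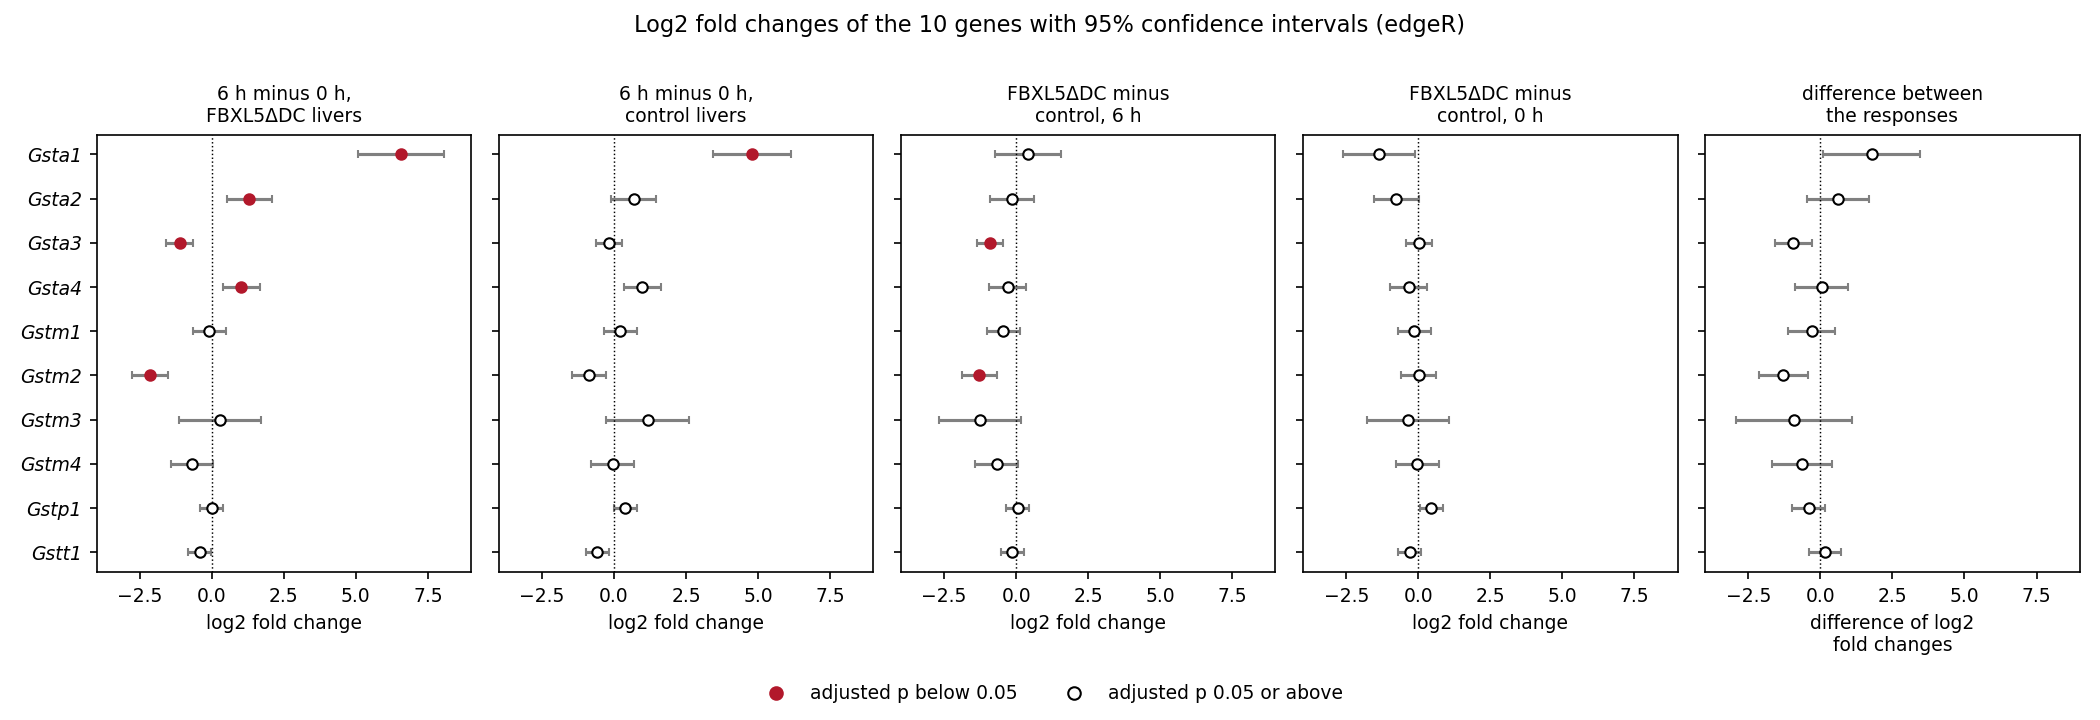
Log2 fold changes of the 10 genes with 95% intervals in 5 panels, from left to right 6 h minus 0 h in FBXL5ΔDC livers, the same in control livers, FBXL5ΔDC minus control at 6 h and then at 0 h, and last the response difference. Filled points passed the adjusted threshold. Gsta1 lies far to the right of the others in both APAP panels, and Gsta3 and Gstm2 are the filled points on the negative side in the FBXL5ΔDC and 6 h genotype panels.

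Among the other 17 tested genes of the family, Gm3776 was the other one to rise in both genotypes, with log2 changes of 7.01 in FBXL5ΔDC livers (adjusted p = 1.26e-04) and 5.46 in control livers (adjusted p = 8.89e-04), or 4.83 there without control 6 h replicate 3. Gm10639 rose in FBXL5ΔDC livers by the test (adjusted p = 0.0163) and missed it in control livers (0.241), and no fold is given because its untreated FBXL5ΔDC libraries were at 0. Gstm6, another mu gene, fell in FBXL5ΔDC livers (log2 -1.25, adjusted p = 1.95e-04) and in control livers (log2 -0.63, adjusted p = 0.0221), and it was lower in FBXL5ΔDC livers at 6 h (log2 -0.63, adjusted p = 0.0335). It had 13.5 to 18.5 CPM in FBXL5ΔDC livers at 6 h and 34.3 to 43.3 CPM at 0 h, against 20.7 to 27.7 CPM and 36.3 to 39.4 CPM in control livers at 6 h and 0 h. The groups at 6 h did not overlap each other or the untreated ones. Gstm6 was still called without control 6 h replicate 3, at -0.52 in control livers (adjusted p = 0.0439) and -0.75 between genotypes at 6 h (adjusted p = 0.00203). The remaining 14 genes passed the test in no contrast.

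Some genes that supply glutathione also rose. Of 13 tested, 5 rose and none fell in FBXL5ΔDC livers, and 6 rose and 1 fell in control livers. For this list and those below, 15% of all tested genes were called higher and 15.1% lower after APAP in FBXL5ΔDC livers. In control livers these shares were 6.36% and 4.2%, and between genotypes at 6 h they were 1.35% and 4.51%. Gclc, the catalytic subunit of the rate-limiting ligase, rose by log2 2.76 in FBXL5ΔDC livers (adjusted p = 9.75e-05) and 2.63 in control livers (adjusted p = 2.92e-04). Glutathione synthetase Gss rose by 0.81 and 0.95, and glutathione reductase Gsr by 0.94 and 0.89. The cystine carrier Slc7a11 averaged 1.15 CPM in FBXL5ΔDC livers at 6 h, against 0.00476 CPM at 0 h, and 7.06 CPM in control livers at 6 h, against 0.0179 CPM at 0 h. Oplah, 5-oxoprolinase, fell in control livers (log2 -0.62, adjusted p = 0.00297) and was higher in FBXL5ΔDC than in control livers at 6 h (0.46, adjusted p = 0.0226), the 1 call of the 13 in that contrast. The control counts were again 6 and 1 without control 6 h replicate 3, and between genotypes 4 were higher and 1 lower in FBXL5ΔDC livers.

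Of 24 NRF2 targets outside the family, 15 rose and 1 fell (Cyp2a5) in FBXL5ΔDC livers, and 16 rose and none fell in control livers, and 4 of these targets are also on the glutathione supply list. Sulfiredoxin Srxn1 averaged 1591 ± 210 CPM in FBXL5ΔDC livers at 6 h, against 54.7 ± 2.88 CPM at 0 h, and 1380.0 ± 654 CPM in control livers at 6 h, against 62.1 ± 1.59 CPM at 0 h (SD, n = 3 each). Hmox1, heme oxygenase 1, averaged 1071 ± 417 and 12.9 ± 3.23 CPM in FBXL5ΔDC livers at 6 h and 0 h, and 579 ± 505 and 13.5 ± 2.16 CPM in control livers at 6 h and 0 h. The log2 rises were 4.86 and 4.47 for Srxn1 and 6.37 and 5.43 for Hmox1 in FBXL5ΔDC and control livers, and the control rise of Hmox1 was 4.43 without control 6 h replicate 3. The medians over the list were 1.10 in FBXL5ΔDC and 1.39 in control livers. Between genotypes at 6 h, 2 of the 24 were lower in FBXL5ΔDC livers (Cyp2a5 and Trib3) and none higher. These became 5 lower and 5 higher without control 6 h replicate 3, and 15 then rose and none fell after APAP in control livers.

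Of 17 regulators of these genes, 6 rose and 5 fell in FBXL5ΔDC livers and 4 rose and 2 fell in control livers. The small Maf proteins pair with NRF2 on DNA, and Mafk rose by log2 3.13 in FBXL5ΔDC and 2.26 in control livers (1.63 without control 6 h replicate 3). Bach1, which competes with NRF2 for the same sites, rose to means of 187 CPM in FBXL5ΔDC and 129 CPM in control livers at 6 h, against 43.7 and 45.6 CPM at 0 h. Sqstm1, which binds KEAP1, rose by log2 1.70 in FBXL5ΔDC and 2.04 in control livers. Nr1i3, the constitutive androstane receptor, averaged 35.9 ± 7.44 CPM in FBXL5ΔDC livers at 6 h, against 243 ± 18.9 CPM at 0 h, and 88.1 ± 46.1 CPM in control livers at 6 h, against 251 ± 31.1 CPM at 0 h. It fell in both genotypes (log2 -2.76 and -1.51), and it was lower in FBXL5ΔDC than in control livers at 6 h (-1.29, adjusted p = 0.0244). Keap1, with 39.6 ± 3.29 CPM in FBXL5ΔDC against 67.3 ± 9.75 CPM in control livers, was also lower at 6 h (-0.77, adjusted p = 0.00862), as was the dioxin receptor Ahr (-1.70, adjusted p = 0.0305). Arnt, the partner of AHR on DNA, was higher, with 47.9 ± 3.84 CPM in FBXL5ΔDC against 31.2 ± 6.81 CPM in control livers (0.62, adjusted p = 0.0472). Between genotypes at 6 h, 1 of the 17 regulators was thus higher and 3 lower in FBXL5ΔDC livers. These counts were 3 and 5 without control 6 h replicate 3, with the same 4 genes still called, and in control livers 4 rose and 1 fell.

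Genes that process and export the conjugates were mixed. Of 17 tested, 4 rose and 7 fell in FBXL5ΔDC livers, and 3 rose and 2 fell in control livers. The conjugate exporter Abcc1 rose by log2 2.06 in FBXL5ΔDC and 1.63 in control livers, and the dipeptidase Cndp2 by 0.78 and 0.54. Abcc3, a basolateral exporter, fell by 0.70 and 0.62 on the log2 scale, and the aminopeptidase Anpep fell by 0.93 and 0.53. When control 6 h replicate 3 was left out, 2 of 18 rose and 1 fell in control livers, and the control calls of Cndp2 (adjusted p = 0.107) and Anpep (0.0584) were lost.

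Markers of pericentral hepatocytes fell with Gsta3 and Gstm2 in FBXL5ΔDC livers. The 25 pericentral markers, genes of the hepatocytes around the central vein where APAP is activated, summed to 2059 to 2958 CPM in FBXL5ΔDC livers at 6 h and 15719 to 15932 CPM at 0 h. In control livers they summed to 6034 to 9627 CPM at 6 h and 13037 to 15864 CPM at 0 h, without overlap, whereas the Gsta3 values of these groups overlapped. After APAP 21 fell and 1 rose in FBXL5ΔDC livers, 9 fell and 1 rose in control livers, and 15 of 25 were lower and none higher in FBXL5ΔDC than in control livers at 6 h. Without control 6 h replicate 3, 8 fell and 1 rose in control livers, and 15 were lower and 1 higher in FBXL5ΔDC livers at 6 h. None of the 25 was at 0 in all libraries of a group. The 24 periportal markers summed to 102705 to 135249 CPM in FBXL5ΔDC livers at 6 h and 77104 to 86741 CPM at 0 h, and to 66460.1 to 109018 CPM in control livers at 6 h and 72919 to 80353 CPM at 0 h. Albumin Alb is 1 of the 24 and also on the hepatocyte list, and its means, given below, make up most of these sums. Of the periportal markers 7 rose and 2 fell in FBXL5ΔDC livers, and 1 rose and 2 fell in control livers. The part of this marker change in the Gsta3 and Gstm2 results was not tested.

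Other cell types changed less evenly. Of 10 sinusoidal endothelial markers 8 rose after APAP in FBXL5ΔDC livers and none in control livers, with sums of 401 to 483 and 193 to 248 CPM in FBXL5ΔDC livers at 6 h and 0 h, and 197 to 334 and 201 to 240.5 CPM in control livers at 6 h and 0 h. Stellate cell markers rose for 6 of 12, cholangiocyte markers for 5 of 10 and Kupffer cell markers for 5 of 12 in FBXL5ΔDC livers. In control livers 0, 1 and 1 rose (1, 0 and 2 without control 6 h replicate 3), and 1 cholangiocyte marker fell in FBXL5ΔDC livers. Over all tested genes, 15% were called higher in FBXL5ΔDC and 6.36% in control livers. Higher between genotypes at 6 h were 3 endothelial, 0 stellate, 0 cholangiocyte and 2 Kupffer cell markers (8, 4, 4 and 4 without control 6 h replicate 3). Lower there was 1 stellate cell marker, with and without that library. The difference between the responses was called for none of these markers, and above 0 for 7, 3, 2 and 2 without that library. Dendritic cell markers, 13 in all, were called after APAP in neither genotype. They summed to 38.9 to 48.7 and 21.2 to 34.3 CPM in FBXL5ΔDC livers at 6 h and 0 h. In control livers the sums were 17.2 to 45.7 CPM at 6 h and 28.1 to 30.8 CPM at 0 h. Of 7 neutrophil markers tested 4 rose in FBXL5ΔDC and 1 in control livers, and all 12 listed summed to at most 11.1 CPM in any library, and Ly6g was at 0 in all libraries of 3 groups. Of 16 hepatocyte markers 4 rose and 2 fell in FBXL5ΔDC livers, and none was called in control livers (1 fell without control 6 h replicate 3). Albumin Alb averaged 98075 ± 16004 CPM in FBXL5ΔDC livers at 6 h and 60410 ± 5169 CPM at 0 h, and 65218 ± 23655 CPM in control livers at 6 h and 56022 ± 5168 CPM at 0 h (SD, n = 3 each). The hepatocyte genes Apoa1 and Ttr had lower means at 6 h in control livers. Apoa1 averaged 5929 CPM at 6 h and 7098 CPM at 0 h there, and Ttr 2494 and 3000 CPM. In FBXL5ΔDC livers Apoa1 averaged 8589 and 7030 CPM, and Ttr 3352 and 2857 CPM. The part of any of these cell types in the transferase results was not tested.

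**Figure D4:**
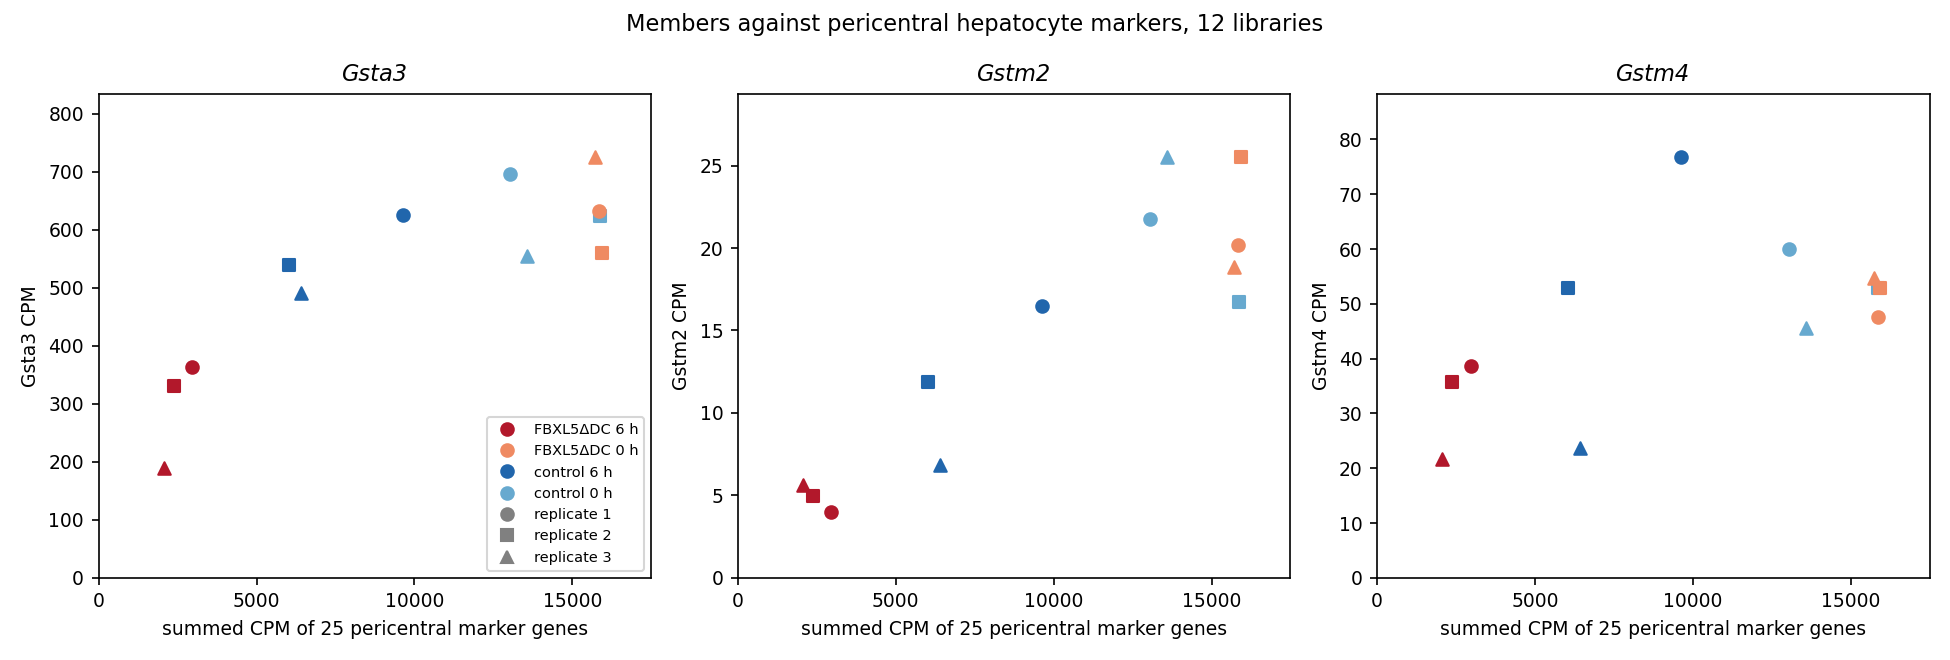
CPM of Gsta3, Gstm2 and Gstm4 against the summed CPM of 25 pericentral marker genes, each point a library, coloured by group and shaped by replicate. On the marker axis the treated FBXL5ΔDC libraries lie at the left, the treated control libraries between and the untreated libraries at the right. Treated FBXL5ΔDC libraries are the lowest for Gsta3 and Gstm2, while for Gstm4 the treated control libraries run from 23.8 to 76.9 CPM, across nearly the whole range.

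The members did not vary as 1 block. Across the 12 libraries, with log2 CPM and n = 12, Gsta2 and Gsta4 had Pearson r = 0.94, Gsta1 and Gsta4 0.82, and Gstm1 and Gstm3 0.81, whereas Gsta1 and Gstm2 had r = -0.83 and Gsta3 and Gsta1 r = -0.66. These points share the 4 groups and the library scaling. Outside the family, the gene most like Gsta1 was Pde12 (r = 0.99), and Gsta4 was most like Ftl2-ps (r = 0.98), a ferritin light chain pseudogene, which also came next after Rnf11 for Gsta2 (r = 0.91). Gsta3 was most like Opa3 (r = 0.96), Gstm2 like Tmem184a (r = 0.98), Gstm4 like Polr2i (r = 0.98), Gstt1 like Cnst (r = 0.93), Gstp1 like Gm15710 (r = 0.90), Gstm1 like Rarb (r = 0.84) and Gstm3 like Gm13453 (r = 0.94). The third gene for Gstm3, Gm8834 (r = 0.88), shared 7.43% of Gstm3's windows, so its counts can include the same reads. Control 0 h replicate 1 and FBXL5ΔDC 0 h replicate 3 each had the highest value of their group for 8 of the 10 genes, and FBXL5ΔDC 6 h replicate 3 had the lowest for 7.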

How the data were processed

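Whole-liver total RNA was sequenced in 12 libraries, 3 for each of 4 groups set by genotype and time, per the labels. The submitters' processing notes name Trim Galore 0.6.6, HISAT2 2.2.1 and the build mm10. Which program counted the reads, on which strand, and what became of multi-mapping reads is not given in the sources used here. The authors deposited estimated counts per gene, all whole numbers, in which 26.5% to 28.5% of values from 1 to 40 were multiples of 4. The counts are therefore not known to be single fragments, and counting intervals are not given.

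Genes were filtered with filterByExpr, scaled with TMM (factors 0.855 to 1.14) and fitted with edgeR 4.0.16 (R 4.3.3) by robust quasi-likelihood, 1 coefficient per group and 8 residual degrees of freedom. 5 contrasts were tested over 17585 genes, with Benjamini-Hochberg adjustment. Although planned for raw counts, this test was also used for these estimated counts, since they needed no rounding. Levels per kb used the union of GENCODE vM21 exons, and near copies were searched as shared 100-base windows of its transcripts. Promoters and stretches were aligned with Biopython, and a prior count of 2 entered log2 CPM. The scripts were tested on simulated data. The 10 members and the lists were chosen with earlier results of these data known. All members were named. From 5 lists, up to 8 genes with the smallest adjusted p in any contrast could be named, and Arnt, Cyp2a5, Trib3 and the marker genes were named after their values were seen. Likeness used the top 3 genes by Pearson r outside the family. DESeq2 1.42.0, other scalings and filters, a replicate block, summed near copies and leaving out each library were alternatives.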

Additional observations from a re-analysis of the deposited data

How the results depend on the processing

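Of the 50 member fold changes, 8 were called, and none of these changed sign in any of 22 alternatives, of which 20 were planned and the 2 that summed near copies by shared windows were chosen after seeing the data. Over 1090 recomputed values, 16 calls were lost, 22 were gained and 34 uncalled changes took the opposite sign. The cause of these shifts was not tested. Members called after APAP in control livers numbered 1 in the reported analysis. They numbered 2 with upper quartile scaling, with CPM above 1 in at least 3 libraries, and with near copies summed (both Gsta1 with Gsta2 and at 20% shared windows), and 4 with DESeq2. With Gsta1 and Gsta2 summed, the 2 members are 1 called sum, counted for each of them. Between genotypes at 6 h the count was 0 in a fit to those groups alone, against 2. Leaving out 1 library gave 1 to 3 members in control livers, 3 to 6 in FBXL5ΔDC livers, 0 to 4 between genotypes at 6 h and 0 to 3 for the difference between the responses. The calls over all genes moved as well and are given below.

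Opposite signs came for Gstp1 after APAP in FBXL5ΔDC livers (0.011 with RLE factors, 0.027 with the stricter filter and 0.011 with DESeq2), Gstm4 at 0 h under the replicate block (0.016) and Gsta2 at 6 h when summed with near copies (0.26 with Gsta1, 0.32 at 20% shared windows). Leaving out 1 library, log2 values spanned 0 for Gstm4 in control livers (-0.46 to 0.30), for Gstm1 (-0.29 to 0.21), Gstm3 (-0.045 to 1.08) and Gstp1 (-0.21 to 0.14) in FBXL5ΔDC livers, and at 0 h for Gsta3 (-0.067 to 0.12), Gstm1 (-0.44 to 0.11), Gstm2 (-0.14 to 0.16), Gstm3 (-1.16 to 0.010) and Gstm4 (-0.12 to 0.074). They also did at 6 h for Gsta2 (-0.44 to 0.13), Gstp1 (-0.16 to 0.21) and Gstt1 (-0.32 to 0.056), and for the difference between the responses of Gsta4 (-0.18 to 0.33) and Gstt1 (-0.027 to 0.35).

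Over all genes, control livers gave 1857 calls, 2883 with DESeq2 and 402 in a fit to those groups alone. The 6 h genotype contrast gave 1031, 2143 with DESeq2, 6 in a fit to those groups alone and 250 to 4249 on leaving out 1 library, the highest without control 6 h replicate 3. At 0 h there were 0 calls, 14 with DESeq2 and 3 in a fit to those groups alone. The difference between the responses gave 51 calls, 686 with DESeq2, 20 with upper quartile scaling, and 1 to 2533 on leaving out 1 library, again highest without control 6 h replicate 3. Leaving out 1 library gave 763 to 2170 calls in control livers. In FBXL5ΔDC livers it gave 3823 to 6305, against 5286 in the reported analysis.

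Whether the replicate numbers pair the mice is not given, and same-numbered libraries showed no clear shared deviation. Such values cannot show whether same-numbered mice shared a cage or litter. Over 18 pairs of same-numbered libraries the correlation of deviations ran from -0.061 to 0.044, and 1 of 12 libraries correlated best with its own number. With the number as a replicate block, the members called stayed at 1 in control livers, 5 in FBXL5ΔDC livers, 0 and 2 between genotypes at 0 h and 6 h, and 0 for the difference between the responses, where the calls over all genes were 28. Depth was similar in all libraries, and Gsta1 in untreated FBXL5ΔDC livers, with 29 to 168 counts, was among the lowest counts of the 10 genes, while no counting interval is given because the counts are estimates.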
